A study of Homo sapiens with 8 samples.

Results

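The genes described here are the receptor tyrosine kinase EGFR, its relative ERBB3, the ligands AREG, EREG, HBEGF, TGFA and BTC, and the intracellular inhibitor ERRFI1. They were taken by gene symbol, and all 8 were found in the count table and in the FPKM table, among the 16383 genes that the count table lists. RNA was sequenced from MDA-MB-231 cells, an established human breast cancer line of mesenchymal character, which were kept in serum-containing medium. Each group held 4 libraries. One group had been given c-di-GMP, a bacterial cyclic dinucleotide that binds the innate immune adaptor STING, at 5 µM for 24 h, and the other the vehicle, phosphate-buffered saline, for the same time. Separate cultures are not stated in the labels, and the p-values therefore rest on a spread between libraries that may be technical. All libraries come from a single line, dose and time.

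EGFR is activated when a ligand joins receptor molecules into dimers, and the active kinase signals through RAS and ERK and through PI3K and AKT. ERBB3 has an impaired kinase, binds neuregulins, and signals when paired with EGFR or ERBB2. The ligands are made as membrane-bound precursors and are released by proteases of the ADAM family, chiefly ADAM17 for AREG, EREG, HBEGF and TGFA. ERRFI1, also called MIG6, binds the kinase domain of EGFR, blocks it and is itself induced by EGFR signalling.

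The libraries held between 16151360 and 18040010 counts. Vehicle replicate 3 was unlike the rest: across genes, its log2 CPM (library-scaled counts, CPM) correlated with the other 7 at 0.852 to 0.868, against 0.987 to 0.992 for the 21 pairs among the others. Mitochondrially encoded transcripts took 1.40% of its reads and 3.58% to 5.00% of those of the others, and 465 listed genes had no count in it, against 2 to 9. The members' differences below are therefore given with all 8 libraries and with the 7 that leave it out. The mesenchymal markers summed to 4388 to 4459 CPM across vehicle replicates 1, 2 and 4. With c-di-GMP their sum was 4497 to 4563 CPM. The 6 listed luminal markers summed to 1371 to 1455 CPM and 1336 to 1368 CPM, mostly from keratins, while the defining epithelial gene CDH1 ranged from 1.97 to 2.27 CPM and from 2.51 to 4.11 CPM. The 4 fibroblast, 3 endothelial and 2 leukocyte markers that were listed reached at most 35.5, 20.4 and 17.9 CPM in these 7 libraries. The mesenchymal marker SPARC was near 0, at 0.173 to 0.730 CPM with vehicle.

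Which members were lower with c-di-GMP depended on the fit, and none was called higher in any of the edgeR fits given here. In the 7 libraries and with no correction for GC content, ERBB3 alone passed the threshold (edgeR adjusted p under 0.05), and it was lower. With the GC trend taken out, ERBB3, TGFA and ERRFI1 were lower. The uncorrected count is 1 of 8 members, where 16.2% of all 15647 genes tested were called lower and 29.6% were called in either direction. The members' median log2 fold change was -0.04, against 0.0014 for all genes. With all 8 libraries no member passed, and 0% of 15415 genes were called by edgeR. Of these genes 960 had an unadjusted p under 0.05 by edgeR, where chance alone would put a share of 0.05 there. DESeq2 called 106 genes (0.936%, with 0.689% lower), none of them a member. In the 7 libraries DESeq2 called ERBB3 as well (adjusted p = 0.0152), where 17.2% of its genes were lower and 32% were called. Groups did not overlap for 3 of the 8 members in the 7 libraries, all lower, against 35.7% of all genes, 17.3% higher and 18.3% lower. With all 8 libraries that held for 1 member, lower, against 14.2% of genes, 6.93% higher and 7.29% lower.

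By level, the inhibitor ERRFI1 came first and the ligand BTC last. Levels of different genes are compared in FPKM, as a mean over the 7 libraries. FPKM are fragments scaled to gene length and to a size set for each library, which need not be its count total. The counts of these 7 came to 92.4% to 94.4% of the library size that their FPKM imply, and those of vehicle replicate 3 to 145.6%. The FPKM of vehicle replicate 3 are thus not scaled to its count total, but stood near its CPM after TMM scaling. Against the mean of the other vehicle libraries, AREG was 4.15 times higher there in FPKM and 4.24 times in that CPM. EGFR was 3.01 and 2.94 times lower. ERRFI1 stood at 129 ± 5.30 FPKM (SD, n = 7), which was rank 193 among the 16383 genes of that table. HBEGF followed at 35.4 ± 0.890 FPKM (SD, n = 7), EGFR at 31.9 ± 1.11 FPKM (SD, n = 7) and AREG at 29.7 ± 0.885 FPKM (SD, n = 7). These 3 are close: HBEGF was above EGFR in all 7 libraries, by 1.11 times on average, while the ranges of EGFR and AREG overlapped. TGFA was lower, at 19.7 ± 0.450 FPKM (SD, n = 7).

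EREG, ERBB3 and BTC formed a lower tier. EREG stood at 3.30 ± 0.256 FPKM (SD, n = 7), ERBB3 at 0.877 ± 0.168 FPKM (SD, n = 7) and BTC at 0.579 ± 0.0914 FPKM (SD, n = 7), and the ranges of ERBB3 and BTC overlapped. The deposited FPKM values divide by the length of all annotated exons of a gene merged. With the longest coding transcript as the length instead, the order was kept, and HBEGF, EGFR and AREG stood at 44.8, 40.6 and 39.4. Of the FPKM of the 5 ligands together, HBEGF made up 39.9% ± 0.783 (SD, n = 7), AREG 33.5% ± 0.762, TGFA 22.2% ± 0.411, EREG 3.72% ± 0.324 and BTC 0.652% ± 0.102. The mix of ligand transcripts was thus nearly the same in each of these 7 libraries. In vehicle replicate 3 the share of AREG was 59.6%.

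**Figure D1:**
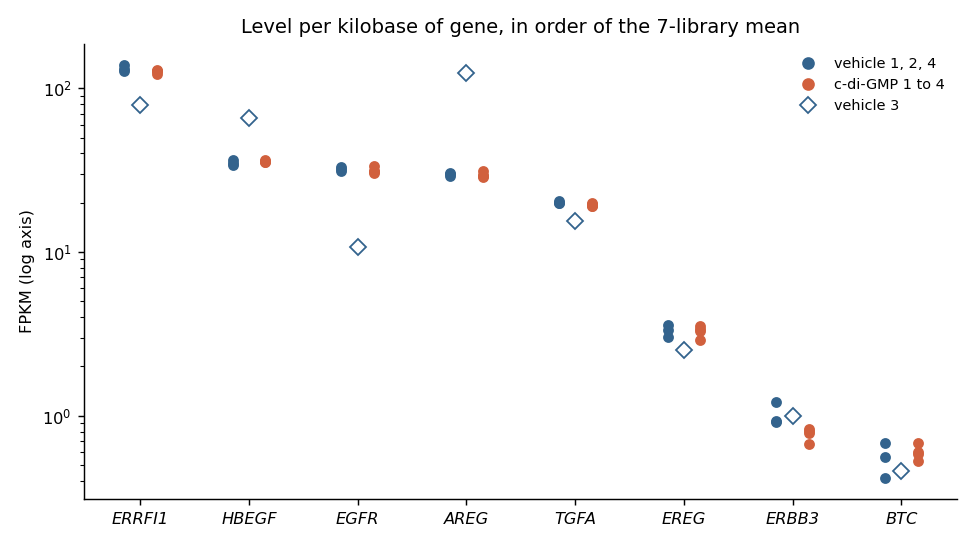
Level of each gene in FPKM (log axis) in every library, ordered by the mean of 7 libraries. Blue points are vehicle replicates 1, 2 and 4, orange points are the 4 c-di-GMP libraries, and the open diamond is vehicle replicate 3, in which AREG stood at 123 FPKM and EGFR at 10.7 FPKM.

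Other genes of the family were measured as well. ERBB2, the receptor without a known ligand that pairs with ERBB3, stood at 8.81 ± 0.900 FPKM (SD, n = 7), far above ERBB3. The ligand of ERBB3 and ERBB4, NRG1, stood at 7.76 ± 0.198 FPKM (SD, n = 7), NRG2 at 0.506 ± 0.0954 FPKM and EGF itself at 0.510 ± 0.0694 FPKM. ERBB4, EPGN, NRG3 and NRG4 were not analysed here.

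AREG, EREG and BTC lie near each other on chromosome 4. In the files' coordinates (GRCh38), EREG spans 74365143 to 74388751 and AREG 74445134 to 74455009 on the plus strand, 56.4 kb apart, and BTC spans 74744759 to 74794686 on the minus strand. EGFR lies on chromosome 7 (55019021 to 55211628, plus strand), ERBB3 on chromosome 12 (56076799 to 56103505, plus strand) and HBEGF on chromosome 5 (140332843 to 140346631, minus strand). TGFA lies on chromosome 2 (70447280 to 70554193, minus strand) and ERRFI1 on chromosome 1 (8004404 to 8026308, minus strand). Despite their position, AREG and EREG differed in level, at 29.7 and 3.30 FPKM.

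The promoters of these neighbours are shown beside those of EGFR and HBEGF, because these 4 genes cover the receptor, the ligand highest in level and a neighbouring pair of unequal level. Each line gives the 250 bases before the RefSeq start (GRCh38.p14), from 5′ to 3′ on the strand of the gene. The regions are chr4:74444886-74445135 for AREG and chr4:74364895-74365144 for EREG, both on the plus strand. They are chr7:55018767-55019016 on the plus strand for EGFR and chr5:140346604-140346853 on the minus strand for HBEGF. Capitals mark matches, on either strand, to the TATA box TATAAA, the cyclic AMP response element TGACGTCA, the GC box GGGCGG and the AP-1 motif TGACTCA or TGAGTCA.

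AREG: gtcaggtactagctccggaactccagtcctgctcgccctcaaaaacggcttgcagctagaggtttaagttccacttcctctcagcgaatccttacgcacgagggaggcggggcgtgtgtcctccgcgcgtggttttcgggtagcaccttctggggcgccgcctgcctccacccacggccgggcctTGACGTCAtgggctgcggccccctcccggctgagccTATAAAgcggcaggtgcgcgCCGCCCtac
EREG: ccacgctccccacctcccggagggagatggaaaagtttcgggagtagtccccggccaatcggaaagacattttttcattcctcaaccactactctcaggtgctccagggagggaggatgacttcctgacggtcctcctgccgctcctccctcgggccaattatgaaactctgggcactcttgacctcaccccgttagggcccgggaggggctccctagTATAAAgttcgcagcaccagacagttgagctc
EGFR: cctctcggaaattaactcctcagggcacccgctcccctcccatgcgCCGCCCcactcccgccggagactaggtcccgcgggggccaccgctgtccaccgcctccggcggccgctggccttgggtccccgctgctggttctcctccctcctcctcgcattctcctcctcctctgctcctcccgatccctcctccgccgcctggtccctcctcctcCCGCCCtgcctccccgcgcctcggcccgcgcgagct
HBEGF: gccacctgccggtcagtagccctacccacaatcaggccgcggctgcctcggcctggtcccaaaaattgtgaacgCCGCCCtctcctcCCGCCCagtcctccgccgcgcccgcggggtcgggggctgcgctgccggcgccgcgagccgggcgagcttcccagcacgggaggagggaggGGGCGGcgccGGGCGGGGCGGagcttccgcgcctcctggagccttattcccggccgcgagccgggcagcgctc

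AREG held 1 match to the cyclic AMP response element, 65 to 58 bases before its start, and a GC box 9 to 4 bases before it. It also held a TATA box 29 to 24 bases before its start. EREG held a TATA box at nearly the same place, 32 to 27 bases before its start. EGFR and HBEGF held no TATA box, and 2 and 5 GC boxes, of which a pair in HBEGF overlap. These 250 bases were 65.2% G or C in AREG, 58% in EREG, 73.6% in EGFR and 76.4% in HBEGF. Of the 35116 promoters in the table, 10.7% held the TATA box, 1.65% the cyclic AMP response element, 42.6% the GC box and 4.203% an AP-1 motif. None of the 7 members with a promoter in the table held an AP-1 motif in this window. These matches describe letters and were not tested as binding sites.

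EGFR (ENSG00000146648) differed between the groups by less than the spread within them. On the scale of all 8 libraries after TMM scaling, which is used for all CPM values of members here, vehicle replicates 1, 2 and 4 held 420, 398 and 406 CPM. The c-di-GMP libraries held 392, 419, 382 and 393 CPM in replicates 1 to 4. The 2 sets overlap, with means of 408 ± 11.5 CPM (SD, n = 3) and 397 ± 15.9 CPM (SD, n = 4). The log2 fold change in the 7 libraries was -0.04 ± 0.04 (SE), and its approximate 95% interval, a change of -8.70% to 3.05%, holds no large change in either direction (edgeR adjusted p = 0.469). Vehicle replicate 3 stood at 139 CPM, and with it the value turned to 0.22 ± 0.32 (edgeR adjusted p = 0.794). EGFR shares 186 exon bases, 1.49% of its total, with EGFR-AS1 on the opposite strand, and whether the counting used strand is not stated in the sources used here.

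ERBB3 (ENSG00000065361) was the member that fell in the uncorrected 7-library fit. Vehicle replicates 1, 2 and 4 held 8.44, 8.40 and 11.05 CPM, from 158, 161 and 205 counts. The c-di-GMP libraries held 7.49, 7.05, 6.08 and 7.36 CPM, from 128, 129, 114 and 137 counts. Every c-di-GMP library lay below every vehicle library, vehicle replicate 3 included at 9.30 CPM. The 3 vehicle libraries had a mean of 9.30 ± 1.52 CPM (SD, n = 3) and the c-di-GMP libraries one of 7.00 ± 0.635 CPM (SD, n = 4). The log2 fold change was -0.41 ± 0.12 (SE) in the 7 libraries, a change of -24.9% with an approximate 95% interval from -36.4% to -11.3% (edgeR adjusted p = 0.00895).

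Fewer cells with ERBB3 transcripts and less of them per cell cannot be told apart in these bulk libraries. Without vehicle replicate 4, the highest of all, its log2 fold change was -0.27 ± 0.12 and missed the threshold (edgeR adjusted p = 0.104). With all 8 libraries it was -0.41 ± 0.14, of the same size, and missed the threshold too (edgeR adjusted p = 0.623). When CPM was taken from library totals without TMM scaling, vehicle replicate 3 stood at 6.17 CPM, below all c-di-GMP libraries, and the other vehicle libraries stayed above them. ERBB2, the usual partner of ERBB3, fell as well, from 107 ± 7.73 to 89.5 ± 1.71 CPM (SD, n = 3 and 4, scaled within the 7 libraries), by 0.26 ± 0.05 on the log2 scale (edgeR adjusted p = 2.80e-04). ERBB2 stood at -0.11 ± 0.04 with the GC trend taken out (edgeR adjusted p = 0.0327). With GC and length trends both out it missed the threshold at -0.06 (edgeR adjusted p = 0.259), and over all 8 libraries it stood at -0.15 ± 0.14.

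**Figure D2:**
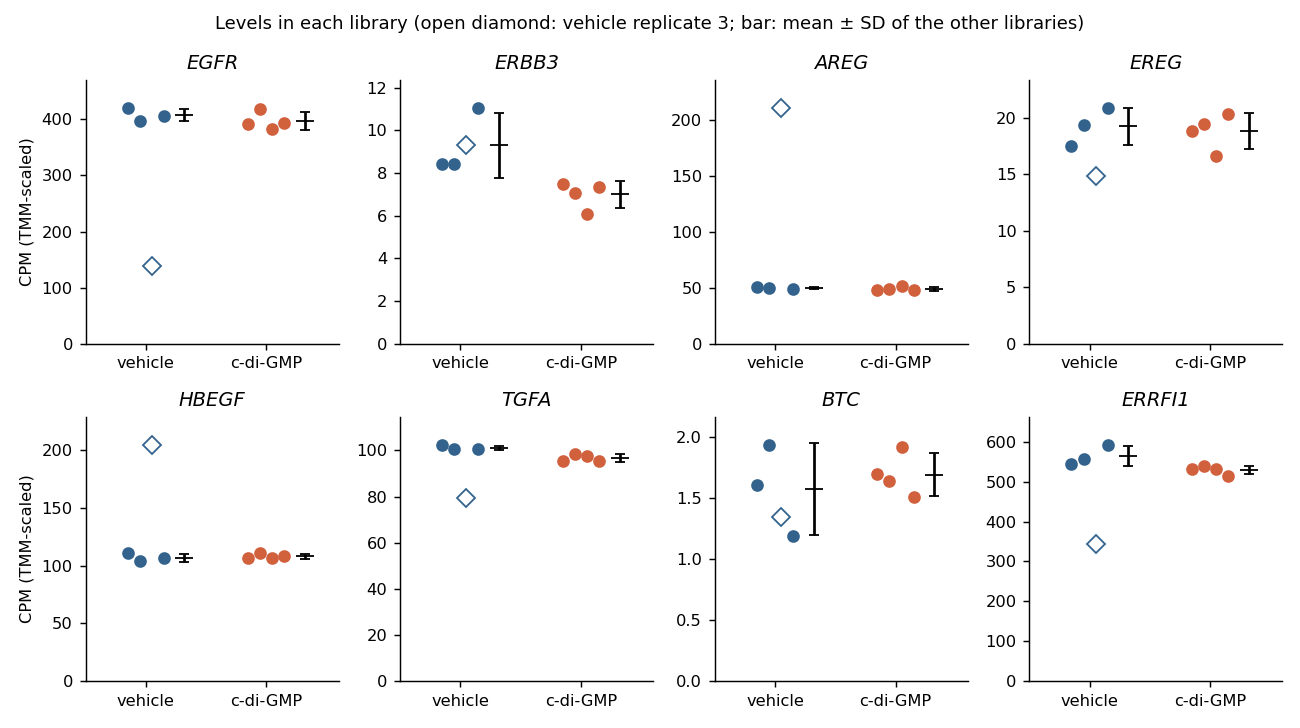
CPM of each gene in every library after TMM scaling over all 8 (each panel starts at 0), with the mean ± SD of the filled points beside them. The open diamond is vehicle replicate 3, which lies at 211 CPM for AREG and at 139 CPM for EGFR, and ERBB3 is the gene whose 4 c-di-GMP points lie below all vehicle points.

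Among the ligands, HBEGF and AREG differed between the groups by less than the spread within them. HBEGF (ENSG00000113070), the heparin-binding ligand that also serves as the diphtheria toxin receptor, had 111, 104 and 106 CPM in vehicle replicates 1, 2 and 4. The c-di-GMP libraries had 106, 111, 107 and 109 CPM. Its log2 fold change in the 7 libraries was 0.01 ± 0.04, with an approximate 95% interval of -5.33% to 7.22% (edgeR adjusted p = 0.879). AREG (ENSG00000109321), amphiregulin, had 50.5, 49.6 and 48.9 CPM in those vehicle libraries. The c-di-GMP libraries had 47.9, 48.4, 51.8 and 47.6 CPM. The groups of both genes overlapped. The log2 fold change of AREG was -0.02 ± 0.05, with an approximate 95% interval of -8.85% to 6.09% (edgeR adjusted p = 0.769).

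With vehicle replicate 3 in the fit, these 2 ligands had larger values and wide errors. AREG had a log2 fold change of -0.88 ± 0.51 and HBEGF one of -0.28 ± 0.23 over all 8 libraries (edgeR adjusted p = 0.623 and 0.659). In that library AREG stood at 211 CPM and HBEGF at 204 CPM, the highest values of all 8 libraries for both.

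EREG and BTC, the ligands of low level, differed between the groups by less than the spread within them. EREG (ENSG00000124882), epiregulin, had 17.5, 19.3 and 20.9 CPM in the same vehicle libraries, against 18.8, 19.4, 16.6 and 20.4 CPM in the treated ones. The groups overlapped, and the log2 fold change was -0.04 ± 0.08 in the 7 libraries, an interval of -13.0% to 9.42% (edgeR adjusted p = 0.777), and 0.05 ± 0.14 in all 8. BTC (ENSG00000174808), betacellulin, had only 15 to 37 counts a library. Its vehicle libraries held 1.602, 1.93 and 1.19 CPM and its c-di-GMP libraries 1.70, 1.64, 1.92 and 1.504 CPM, which overlap. At that depth the interval of its change ran from -22.7% to 48.2% around a log2 fold change of 0.10 ± 0.23 (edgeR adjusted p = 0.784), the widest of the 8 members. With all 8 libraries the value was 0.15 ± 0.21.

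TGFA and ERRFI1 had groups that did not overlap in the 7 libraries but missed the threshold in the uncorrected fit. TGFA (ENSG00000163235), transforming growth factor alpha, had 102, 100.5 and 100.5 CPM in vehicle replicates 1, 2 and 4. The c-di-GMP libraries had 95.3, 98.6, 97.6 and 95.4 CPM, all below these. Its log2 fold change was -0.07 ± 0.04, an interval of -10.2% to 1.51% (edgeR adjusted p = 0.259), and 0.02 ± 0.11 with all 8 libraries. ERRFI1 (ENSG00000116285) had 543, 558 and 591 CPM in those vehicle libraries, against 533, 539.6, 531 and 514 CPM in the treated ones. The gap between the groups was narrow, and on library totals or in FPKM the groups of ERRFI1 overlapped. Its log2 fold change was -0.09 ± 0.04, an interval of -11.7% to -0.691% (edgeR adjusted p = 0.0853), and 0.06 ± 0.18 with all 8 libraries. Without vehicle replicate 1 it passed the threshold at -0.12 ± 0.04 (edgeR adjusted p = 0.0139), and without vehicle replicate 4 it stood at -0.06 ± 0.05. ERRFI1 shares 155 exon bases, 3.70% of its total, with AL034417.4 on the opposite strand.

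The spread between libraries of a group was near the counting error for most ligands. For AREG the coefficient of variation within groups was 3.21%, where counting alone gives 3.32%, and for HBEGF it was 2.48% against 2.24%. TGFA had 1.42% against 2.34%, and BTC 16.6% against 18.2%. The spread was larger than counting for EGFR, at 3.57% against 1.16%, for ERRFI1, at 3.24% against 0.998%, for ERBB3, at 13.5% against 8.24%, and for EREG, at 8.56% against 5.34%. Counting error here covers reads only.

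Fold changes of all genes followed the GC content of their transcripts in the 7 libraries (Spearman rho = -0.589 across genes, which are not independent replicates). Genes within 1 percentage point of the GC content of a member had median log2 fold changes from -0.05 (near ERBB3, 52.0% GC) to 0.13 (near EREG, 36.1% GC). With each library's GC trend taken out, 3 of the 8 members were lower and none higher, where 6.62% of all genes were called lower and 8.58% higher. ERBB3 then had -0.37 ± 0.12, and on the same log2 scale ERRFI1 fell by 0.18 ± 0.03 and TGFA by 0.12 ± 0.03. The edgeR adjusted p of these 3 genes was 0.0316, 3.05e-04 and 0.0175. EREG moved from -0.04 to -0.17 ± 0.07 and missed the threshold (edgeR adjusted p = 0.109), while its groups, which overlapped before, no longer did. EGFR stood at -0.08 ± 0.03, AREG at -0.09 ± 0.05, HBEGF at 0.04 ± 0.03 and BTC at -0.02 ± 0.23, none past the threshold. With a trend on gene length taken out as well, ERBB3 missed the threshold at -0.32 ± 0.11 (edgeR adjusted p = 0.0554), and AREG, the shortest of the 8, passed it at -0.17 ± 0.05 (edgeR adjusted p = 0.0140). ERRFI1 and TGFA kept their calls in that fit, at -0.19 ± 0.03 and -0.12 ± 0.03 (edgeR adjusted p = 4.38e-05 and 0.0142). Of all 15647 genes, it called 898 lower and 1199 higher. The part of GC content in these differences was not tested beyond these fits.

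**Figure D3:**
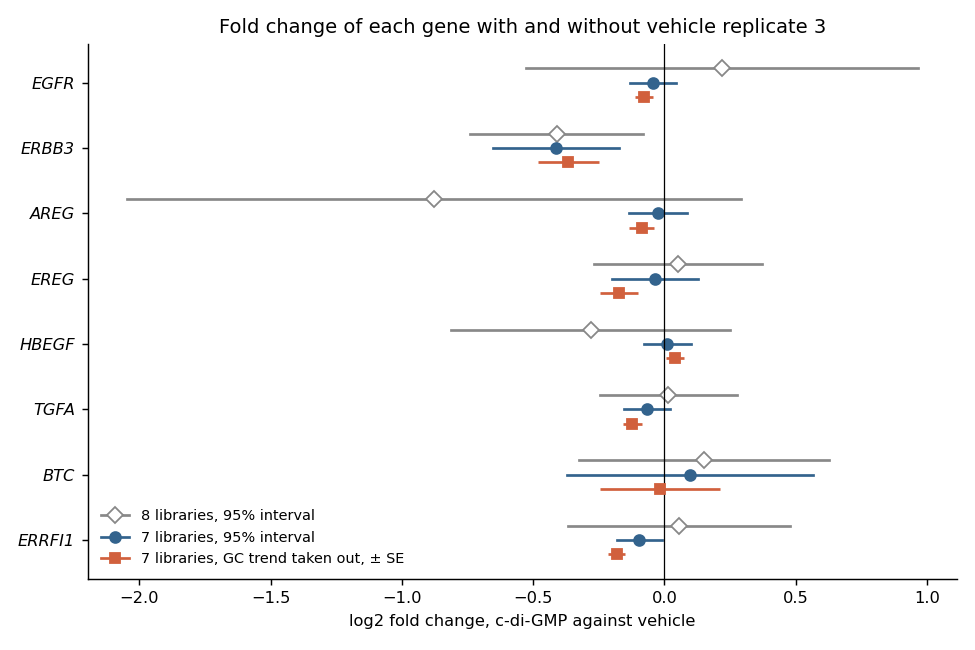
Log2 fold change of each gene, c-di-GMP against vehicle: over all 8 libraries (open diamonds, 95% interval), over the 7 without vehicle replicate 3 (blue, 95% interval) and over the 7 with the GC trend taken out (orange, ± SE). AREG moves from -0.88 to -0.02 when vehicle replicate 3 is left out, whereas ERBB3 stays at -0.41.

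Vehicle replicate 3 changed the order of the members. AREG was 4.24 times as high there as the mean of the other vehicle libraries and HBEGF 1.91 times, while EGFR was 2.94 times and ERRFI1 1.64 times lower. EREG, TGFA and BTC were 1.296, 1.27 and 1.17 times lower, and ERBB3 was at the same level. On library totals, without TMM scaling, AREG and HBEGF were still higher, by 2.65 and 1.19 times, and the other 6 lower, EGFR by 4.71 times and ERBB3 by 1.6 times. Within that library AREG, at 123 FPKM, was above ERRFI1, at 79.1 FPKM.

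The same library was high in short genes and low in long ones, which can be set beside these values. Among the 14041 genes of at least 1 CPM in the other vehicle libraries, the median log2 ratio of vehicle replicate 3 to them fell from 0.87 in the tenth of genes with the shortest exons to -0.80 in the tenth with the longest. AREG has 1648 exon bases, and its log2 ratio of 2.09 was at the 74.5th percentile of 976 genes of like length, within 1.25 times. EGFR has 12521 exon bases, and its ratio of -1.56 was at the 21.0th percentile of 1217 genes of like length. HBEGF (3018 bases) was at the 66.8th, ERRFI1 (4186 bases) at the 26.6th and ERBB3 (9039 bases) at the 68.2nd percentile. The 8 members thus lay between the 21.0th and the 74.5th percentile of genes of their own length. The luminal markers summed to 2465 CPM and the fibroblast markers to 4.45 CPM in that library. The luminal sum came mainly from the keratins KRT8, KRT18 and KRT19, at 1038, 432 and 939 CPM, while CDH1 stood at 1.07 CPM, below the other vehicle libraries. The mesenchymal markers summed to 3968 CPM there and moved both ways, with VIM at 1458 CPM against 638 to 677 CPM and AXL at 275 CPM against 1243 to 1321 CPM. The part of these markers in its values was not tested.

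**Figure D4:**
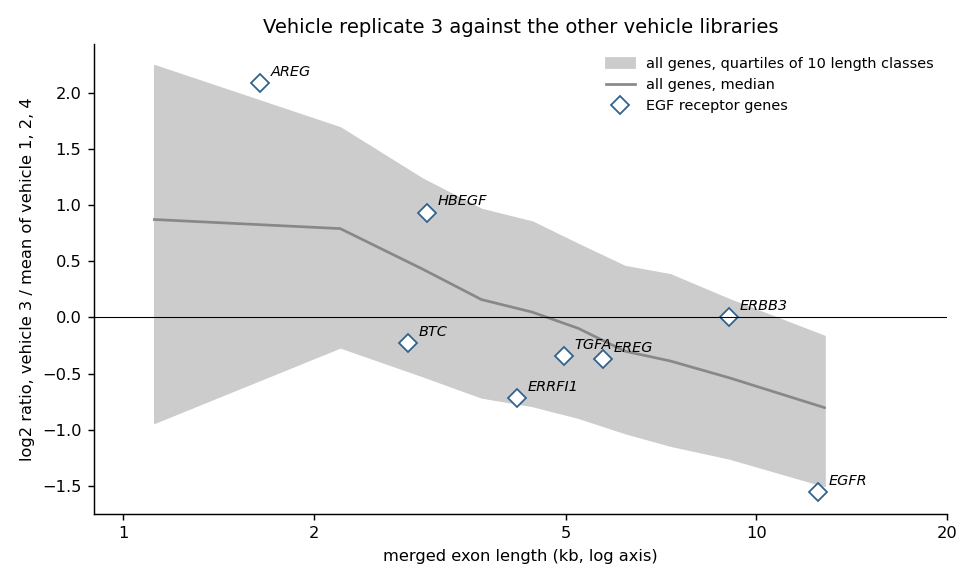
Log2 ratio of vehicle replicate 3 to the mean of vehicle replicates 1, 2 and 4 against merged exon length (log axis), with the quartiles and median of all genes in 10 length classes. AREG, at 2.09, is short and high, and EGFR, at -1.56, is long and low.

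The genes around the receptor were taken from 7 lists of 97 genes, of which 91 were tested. In the 7 libraries 7 of the 91 rose and 30 fell, where 13.5% of all genes were called higher and 16.2% lower, with a median log2 fold change of -0.06 against 0.0014 for all genes. With the GC trend taken out 4 were higher and 18 lower, where 8.58% of all genes were higher and 6.62% lower, and 13 were called lower in both fits. With all 8 libraries none passed. The values of the lists below are from the 7 libraries unless all 8 are named.

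Of 12 genes of ligand release, 6 fell and 2 rose, where 16.2% of all genes were lower and 13.5% higher. With the GC trend taken out 3 were lower and none higher, where 6.62% and 8.58% were. ADAM8, a protease of myeloid and invasive cancer cells, fell from 398 ± 43.6 to 274 ± 2.78 CPM (SD, n = 3 and 4), by 0.54 ± 0.05 on the log2 scale and by 0.22 ± 0.03 with the GC trend taken out. The iRhom RHBDF2, a partner that carries ADAM17 to the cell surface, fell by 0.46 ± 0.06 and by 0.17 ± 0.05 with the GC trend taken out. Its relative RHBDF1 fell by 0.29 ± 0.05 and stood at -0.01 ± 0.05 with the GC trend taken out. ADAM9 and ADAM10 rose by 0.18 ± 0.04 and 0.17 ± 0.04 on the log2 scale and passed no threshold after that correction. ADAM17 itself stood at 66.7 CPM with vehicle and 68.0 CPM with c-di-GMP, a log2 fold change of 0.03 ± 0.05 (edgeR adjusted p = 0.744). Over all 8 libraries ADAM8, RHBDF2 and RHBDF1 stood at -0.46 ± 0.13, -0.10 ± 0.52 and -0.21 ± 0.12, and ADAM9, ADAM10 and ADAM17 at 0.36 ± 0.20, 0.31 ± 0.17 and 0.34 ± 0.41.

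Of 14 adaptors and exchange factors, 5 fell and 1 rose, where 16.2% of all genes were lower and 13.5% higher. With the GC trend taken out none was called, where 6.62% of all genes were lower and 8.58% higher. The adaptor SHC1, which links the receptor to GRB2 and RAS, fell by 0.19 ± 0.04, the adaptor NCK2 by 0.25 ± 0.07 and the phospholipase PLCG1 by 0.16 ± 0.05. SHC2 and GAB2 were the other falls and NCK1 the rise. Over all 8 libraries SHC1, NCK2 and PLCG1 had values of the opposite sign, at 0.17 ± 0.57, 0.07 ± 0.43 and 0.06 ± 0.26. In the RAS to ERK chain, the kinase MAP2K2 fell by 0.27 ± 0.05 and the GTPase NRAS rose by 0.12 ± 0.05. With the GC trend taken out MAP2K2 stood at -0.04 ± 0.03 and NRAS at -0.0025 ± 0.03, and over all 8 libraries at -0.62 ± 0.27 and -0.08 ± 0.18. HRAS and ARAF were called higher in the corrected fit, at 0.25 ± 0.04 and 0.13 ± 0.04. Their uncorrected values had the opposite sign, at -0.11 ± 0.05 and -0.05 ± 0.05, and were not called. Over all 8 libraries HRAS stood at -1.53 ± 0.73 and ARAF at 0.006 ± 0.11. Of 12 tested genes of the PI3K, AKT, SRC and STAT list, 3 fell and none rose, and with the GC trend taken out 3 were lower and none higher, beside the same shares of all genes. AKT1 fell by 0.37 ± 0.05, AKT2 by 0.22 ± 0.04 and the tyrosine kinase SRC by 0.36 ± 0.05, and with the GC trend taken out they stood at -0.10 ± 0.03, -0.06 ± 0.03 and -0.16 ± 0.04. Over all 8 libraries AKT1 stood at -0.06 ± 0.40, AKT2 at 0.05 ± 0.33 and SRC at 0.01 ± 0.58.

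Of 23 tested attenuators of the receptor, 5 fell and 2 rose, where 16.2% of all genes were lower and 13.5% higher. With the GC trend taken out 7 were lower and none higher, where 6.62% and 8.58% were. The endocytic adaptor EPN1 fell from 301 ± 51.0 to 218 ± 6.68 CPM (SD, n = 3 and 4), by 0.46 ± 0.07 and by 0.40 ± 0.06 with the GC trend taken out. LRIG1, a membrane protein that promotes degradation of EGFR, fell by 0.33 ± 0.07 and by 0.23 ± 0.06 with the GC trend taken out. HGS, which sorts ubiquitinated receptors in endosomes, fell by 0.34 ± 0.05 and stood at -0.04 ± 0.03 after the correction. PTPRJ and SPRED1 were the other falls, and SOCS4 and PTPN12 the rises. The ubiquitin ligase CBL, which marks active EGFR for degradation, had a log2 fold change of 0.0034 ± 0.05. Over all 8 libraries EPN1, LRIG1, HGS and CBL stood at -0.36 ± 0.16, -0.27 ± 0.12, 0.05 ± 0.65 and 0.36 ± 0.53.

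Early response genes, which ERK signalling induces, leaned to lower levels. Of 15, 9 fell and none rose in the 7 libraries, where 16.2% of all genes were called lower, and with the GC trend taken out 4 were lower, where 6.62% were. These 4 were IER3, DUSP4, PHLDA1 and SPRY2, of which SPRY2 was not called in the uncorrected fit. The other falls of that fit lost their calls. The stress-inducible gene IER3 fell from 590 ± 49.2 to 448 ± 11.3 CPM (SD, n = 3 and 4), by 0.40 ± 0.05 and by 0.22 ± 0.03 with the GC trend taken out. DUSP4, a phosphatase of ERK, fell by 0.32 ± 0.04 and by 0.28 ± 0.03. The AP-1 subunit JUNB fell by 0.44 ± 0.06 and stood at -0.09 ± 0.05 after the correction. DUSP6, another ERK phosphatase, stood at 208.0 CPM with vehicle and 208.3 CPM with c-di-GMP. Over all 8 libraries IER3, DUSP4, JUNB and DUSP6 had log2 fold changes of -0.85 ± 0.33, -0.12 ± 0.23, -0.67 ± 0.20 and -0.39 ± 0.29, none past the threshold.

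**Figure D5:**
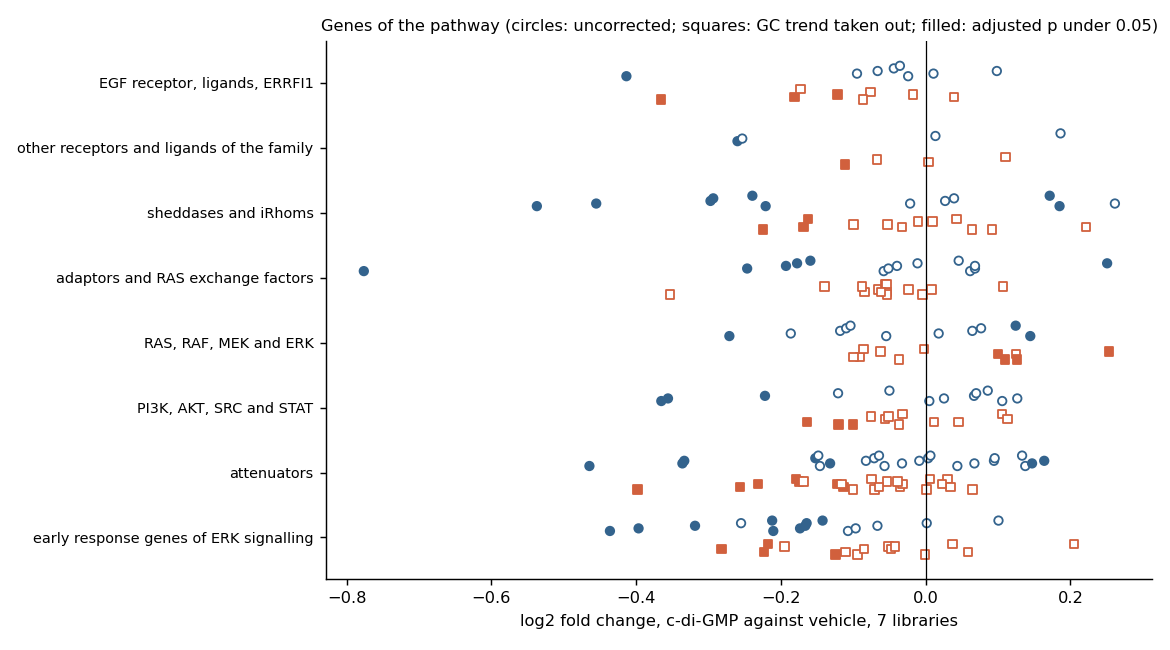
Log2 fold changes in the 7 libraries for the members and for each list of related genes. Circles are uncorrected values, squares have the GC trend taken out, and filled symbols passed the threshold: 9 of the 15 early response genes are filled circles to the left of 0, and 4 are filled squares there.

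Over the 7 libraries, the protein-coding genes whose log2 CPM followed that of EGFR most closely, among 9564 of at least 10 CPM, were SHC3 (Pearson r = 0.990), GALNT10 (0.980) and PSD3 (0.976). SHC3 is an adaptor of the list above. For HBEGF they were POLDIP3 (0.986), GTSE1 (0.981) and PPARGC1B (0.972). These are the highest of many correlations over 7 points that share libraries, and are given as a description.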

How the data were processed

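The authors deposited read counts per gene and FPKM per gene. Per the submitters' processing notes the tools were HISAT2 2.0.5, DESeq2 1.20.0, featureCounts 1.5.0-p3, CASAVA 1.8 and also fastp, with no role given. The notes name a mouse build, but all 16383 genes of the count table have human identifiers and the coordinates of GENCODE v29 (GRCh38). The FPKM values deposited were used for levels and alternatives only. The lowest total of a listed gene was 55 counts.

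Counts were filtered by filterByExpr (minimum count 10, total 15), scaled by TMM and tested with edgeR 4.0.16 in R 4.3.3 (quasi-likelihood), modelling treatment alone, and p was adjusted over all genes (Benjamini-Hochberg). SEs and intervals were computed from F. The GC trend was a lowess fit (span 0.3) on the longest transcript, entered as an offset. DESeq2 1.42.0, limma 3.58.1 on log2 FPKM and other alternatives are given at the end. The uncorrected edgeR fits of 7 and 8 libraries were tested on simulated counts with known changes. Both simulations used the mean levels of the 7 libraries and a spread like theirs. The deviation of vehicle replicate 3 was not simulated, so the 8-library fit was not tested at its own spread. The coefficient of variation that edgeR estimated was 36.3% with 8 libraries and 4.52% with 7. In the pairing check, same-numbered libraries deviated from their group means with correlations of -0.110 to 0.375. Each pair of libraries differed by more than counting noise (lowest chi-square over its degrees of freedom 1.74).

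The members and lists were chosen with earlier results of these data known. The text names every member, of each list the 3 smallest p past the threshold, ERBB2, EGF and NRG1, and the closest patterns of EGFR and of the ligand highest in FPKM. Some results of the RAS to ERK list are not reported here. ADAM17, CBL, DUSP6 and genes named to spell out a count of 5 or fewer were chosen after their values were seen.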

Additional observations from a re-analysis of the deposited data

Results flagged for a closer look

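Vehicle replicate 3 lay far from the other 3 vehicle libraries for 4 of the 8 genes. It was the lowest vehicle library for EGFR, at 139 CPM, and for TGFA, at 79.6 CPM. It was the highest for AREG, at 211 CPM, and for HBEGF, at 204 CPM. In these genes its distance to the nearest library was between 0.919 and 0.990 of the range of the group. Of the 16 groups of 4 looked at, these 4 were flagged on CPM after TMM scaling, where chance flags about 1 in 20, and all 4 are the same library. That library was known beforehand to stand apart, and its genes are not independent. The chance rate therefore gives no test of these flags. No c-di-GMP library was flagged.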

How the results depend on the processing

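With all 8 libraries edgeR called 0 genes, DESeq2 called 106, and leaving out 1 library gave between 0 and 4633, the latter without vehicle replicate 3. With the 7 libraries the 4633 calls became 2378 with the GC trend taken out, 2097 with GC and length trends taken out, and 3440 to 4826 when 1 more library was left out. The replicate block gave 4093 calls, or 1598 with the GC trend taken out, and 0 with all 8 libraries. The numbers were not shown to pair the libraries. With all 8, the correlations of pairs 1 to 4 were -0.0050, 0.375, 0.248 and -0.11. Without vehicle replicate 3, those of pairs 1, 2 and 4 were 0.070, -0.008 and 0.062.

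ERBB3 kept its direction in every alternative, from -0.48 to -0.18 in the 7 libraries. Its call was lost in the 3 fits on log2 FPKM (adjusted p = 0.119 to 0.122 by limma), with the block and GC trend together (0.106), with GC and length trends taken out, and without vehicle replicate 4. The -0.18 came from log2(FPKM + 1), where the added 1 exceeds the mean of ERBB3, 0.877 FPKM. With 0.1 added instead, ERBB3 stood at -0.35. ERRFI1 and TGFA gained calls in the 7 libraries with the GC trend taken out, with both trends, and with the block and GC trend (adjusted p = 0.00395 and 0.0472), ERRFI1 also without vehicle replicate 1, and AREG with both trends. In the 8-library fit, the values with the GC trend taken out, with GC and length trends, and with the block and GC trend were -0.093, -0.12 and -0.088 for EREG and -0.033, -0.036 and -0.026 for TGFA. For ERRFI1 the first 2 were -0.020 and -0.013. In the 7-library fit BTC turned to -0.017, -0.064 and -0.080 in these 3, HBEGF to -0.0023 with both trends, and EREG to 0.021 with the replicate block. Leaving out 1 of 8 libraries gave -0.044 to 0.34 for EGFR, -0.036 to 0.13 for EREG, -0.37 to 0.011 for HBEGF, -0.066 to 0.050 for TGFA and -0.095 to 0.14 for ERRFI1. In each the sign turned without vehicle replicate 3. Leaving out 1 of 7 gave -0.0971 to 0.0237 for EREG, -0.012 to 0.037 for HBEGF and -0.069 to 0.27 for BTC. The causes were not tested. Depth limits BTC most.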
